A study of Trichoderma reesei with 9 samples.

Results

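The genes described here stood higher in *Trichoderma reesei* grown on high melanin necromass than on either low melanin necromass or glucose, while their level on low melanin necromass stayed under 2 times that on glucose. They are 25 of the 9849 genes in the count table. A gene was taken when its mean on high melanin necromass was at least 1 count per 1000000 counts of the library (CPM), at least 2.5 times the mean on low melanin necromass and at least 2.5 times the mean on glucose, when its low melanin mean was under 2 times its glucose mean, and when the lowest of the 3 high melanin libraries lay above the highest of the other 6. These genes were thus chosen by their measured CPM in all 9 libraries. Their levels and fold changes on the 3 substrates are given as a description with no p value for a single gene, and where their calls in a fit are counted, the rule used the same values and nothing is read from the count.

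All 9 cultures were of strain RUT-C30, a derepressed strain with a truncated *cre1* gene, kept for 7 days in shaken Highley's medium after growth in malt extract broth and a day without carbon source. Of the independent cultures 3 received high melanin necromass at 0.45% (w/v), 3 received low melanin necromass at the same dose and 3 received glucose at 1% (w/v). Both necromass types were freeze-dried mycelium of the ascomycete *Hyaloscypha bicolor*. Each was harvested in bulk from cultures grown in a different volume and at a different shaking speed. The types differed in more than melanin. The study measured a larger share of N-containing compounds and a smaller share of sugars in the high melanin type. These differences and melanin cannot be told apart here. Poly(A) RNA was sequenced, with library totals of 21447367 to 24635281 counts for high melanin cultures, 18074631 to 22327638 for low melanin cultures and 19602387 to 20541445 for glucose cultures.

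Melanin is a dark polymer of phenolic and indolic units that fungi deposit in or on their walls, where it lies close to chitin and glucan and slows the decay of dead mycelium. Chitin is cleaved by GH18 chitinases and opened by oxidation by the lytic polysaccharide monooxygenases of family AA11. *Trichoderma* species feed on other fungi, dead or alive, and their genomes hold many GH18 genes.

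Most genes that stood well above both other substrates on high melanin necromass also had a low melanin level of at least 2 times that on glucose. Of the 8820 genes with at least 1 CPM on high melanin necromass, 124 had at least 2.5 times their low melanin level there, and 104 of these also had at least 2.5 times their glucose level. In 26 of the 104 the low melanin mean was under 2 times the glucose mean, and 1 of the 26 had libraries that overlapped. A further 77 genes met every condition except the limit on low melanin necromass.

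As a group the 25 genes were rare transcripts. Their summed level was 292.7, 321.6 and 295.9 CPM in the high melanin libraries, against 71.5, 80.3 and 75.2 CPM in the low melanin libraries and 43.1, 92.7 and 86.7 CPM in the glucose libraries. The median of their mean levels was 3.43 CPM on high melanin necromass, 0.577 CPM on low melanin necromass and 0.514 CPM on glucose, while the median of all 9312 genes tested was 31.5, 34.3 and 32.5 CPM in the same order of substrates. On high melanin necromass 8 genes averaged at least 10 CPM, 5 lay from 3 to 10 CPM and 12 lay under 3 CPM. All 25 passed the filter of at least 10 counts in at least 3 libraries, but 6 of them passed it through the high melanin libraries alone and had to differ. Protein IDs 75929, 67737, 69405 and 95463 reached 10 counts in fewer than 3 libraries outside high melanin necromass. They too would not have been tested without the high melanin libraries.

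**Figure D1:**
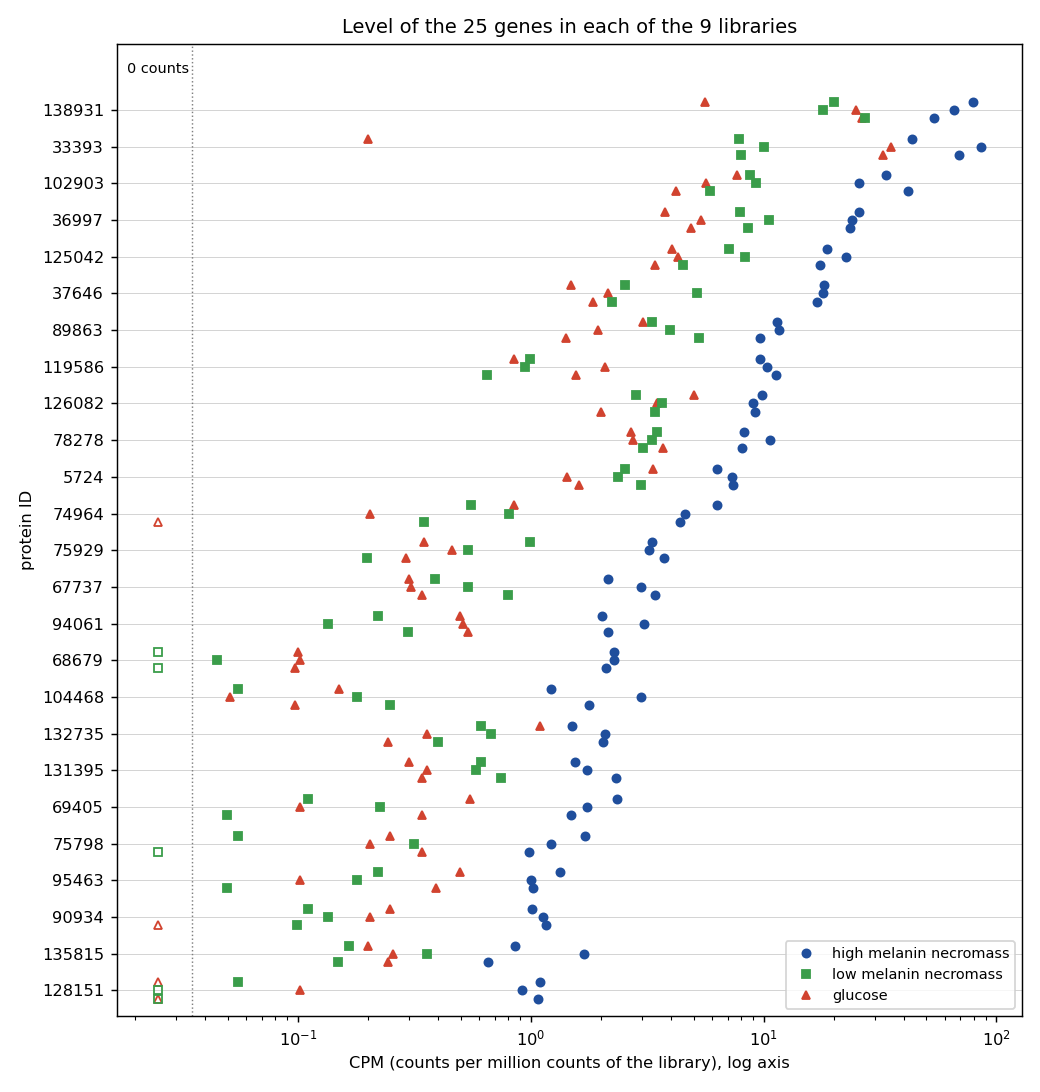
Level of each of the 25 genes in each library, as CPM on a log axis, with 1 row per protein ID and replicates 1 to 3 from top to bottom within a row. Blue circles are high melanin necromass, green squares low melanin necromass and red triangles glucose, and open symbols left of the dotted line mark 0 counts, and in every row the 3 blue circles lie right of all other symbols, as the rule requires, and the green and red symbols mix in most rows.

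An annotation of predicted function was at hand for few of these genes. It came from the study's table of differentially expressed genes, of which part was available here, and 12 of the 25 genes were in that part, 8 with an annotation and 4 without any. The other 13 were outside it. Among the 8 annotated genes, 4 carry a CAZyme family, namely the GH18 genes with protein ID = 94061 and 104468, the AA11 gene with protein ID = 135815 and the GT4 gene with protein ID = 89863. The remaining annotated genes are protein ID = 102903, of a family that holds peptidylarginine and agmatine deiminases, protein ID = 128151, of the class V aminotransferases, protein ID = 131395, a cytochrome P450, and protein ID = 119586, with an orthology group only. Protein ID = 95463, outside that part, is a GH16 gene.

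Chitin-active enzymes formed the only annotated class with more than 1 gene among the 25. Protein ID = 94061 (GH18) had 2.03, 3.05 and 2.14 CPM on high melanin necromass, against 0.221, 0.134 and 0.298 CPM on low melanin necromass and 0.497, 0.510 and 0.536 CPM on glucose. Its low melanin libraries all lay below its glucose libraries, so the lowest level of this chitinase gene was on low melanin necromass. Protein ID = 104468 (GH18), whose product also carries a carbohydrate-binding module of family CBM1, had 1.22, 2.96 and 1.77 CPM on high melanin necromass, against 0.0553, 0.179 and 0.248 CPM on low melanin necromass and 0.149, 0.0510 and 0.0974 CPM on glucose. That is 30, 68 and 38 counts per high melanin library and at most 5 counts in any other library.

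The AA11 gene was the least even of the 25 on high melanin necromass. Protein ID = 135815 had 0.852, 1.70 and 0.653 CPM on high melanin necromass, against 0.166, 0.358 and 0.149 CPM on low melanin necromass and 0.199, 0.255 and 0.243 CPM on glucose. Its lowest high melanin library lay 1.82 times above low melanin replicate 2, the highest of the others. Each of these 3 chitin genes was highest in high melanin replicate 2. Replicate 2 was the highest high melanin library for 8 of the 25 genes and for 48.5% of all genes tested.

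These chitin genes were then set beside the other annotated members of their families. The part of the annotation used here holds 12 GH18 genes, all of them chosen in the study for a change on these samples, so their direction is not independent evidence. High versus low melanin necromass gave 5 called up and 1 called down in edgeR (quasi-likelihood test, p adjusted by Benjamini-Hochberg). A call needed an adjusted p under 0.05 together with a change of 2 or more on the log2 scale, up or down. Of all genes tested, 0.655% were called up and 0.215% down by the same thresholds, and of the 2086 genes in the annotation used here 2.30% were called up. The 2 genes above were chosen on this contrast, and without them 3 of 10 were called up. Of these 3, protein ID = 86290 passed the filter through the high melanin libraries alone and had to differ. The median log2 fold change of the 12 genes was 1.19, against −0.01 for all genes tested. That median includes the 2 genes chosen on this contrast, so it is a description only. Without high melanin replicate 1, 2 or 3 the number called up was 3 each time. Protein IDs 104468 and 86290 passed the filter through the high melanin libraries alone. With any of those libraries left out they were no longer tested, so the lower number is not a loss of their calls on testing.

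Among the 5 called up are the 2 genes above and 3 whose low melanin mean was at least 2 times their glucose mean, which alone kept them outside the rule. On low melanin necromass versus glucose 7503 passed the test and the other two did not (adjusted p = 0.0766 for 133349 and 0.0705 for 86290, edgeR). Protein ID = 7503 averaged 27.9 ± 5.004 CPM on high melanin necromass, 6.80 ± 0.862 CPM on low melanin necromass and 0.0495 CPM on glucose (SD, n = 3). Its log2 fold change on high versus low melanin necromass was 2.14 (SE 0.22, edgeR adjusted p = 0.00138). Protein ID = 133349 rose by 3.17 (SE 0.57, adjusted p = 0.00983, edgeR) on the same log2 scale. Protein ID = 86290 rose by 4.22 (SE 0.59, adjusted p = 0.00426, edgeR), and both carry CBM1. Protein ID = 86290 had at most 0.224 CPM in any library outside high melanin necromass. It was tested through the high melanin libraries alone, so its call is a description only. The gene called down was protein ID = 130024, with CBM18 and CBM50 modules, which averaged 2.09 ± 0.287 CPM on high melanin necromass and 11.5 ± 3.58 CPM on low melanin necromass, and had no count on glucose.

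Of the 6 other annotated chitin and chitosan genes, the 5 outside the rule were not called in either direction on high versus low melanin necromass. The AA11 gene was called up, which restates its choice on this contrast, and it passed the filter through the high melanin libraries alone. The GH20 gene with protein ID = 7256 averaged 9.32 ± 1.10 CPM on high melanin necromass and 5.67 ± 1.53 CPM on low melanin necromass (SD, n = 3), and had 1.04, 33.1 and 43.0 CPM on glucose. The GH75 chitosanase gene with protein ID = 57859 stood at 1.51 ± 0.272 CPM on high and 1.41 ± 0.122 CPM on low melanin necromass, far below its 13.4 CPM on glucose. All 6 chitin genes called up, the 3 of the rule and the 3 outside it, were highest in high melanin replicate 2, as were 48.5% of all genes tested. Where GH18 genes have stretches in common, kallisto apportions the reads by estimate, and whether any of these genes do was not tested.

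**Figure D2:**
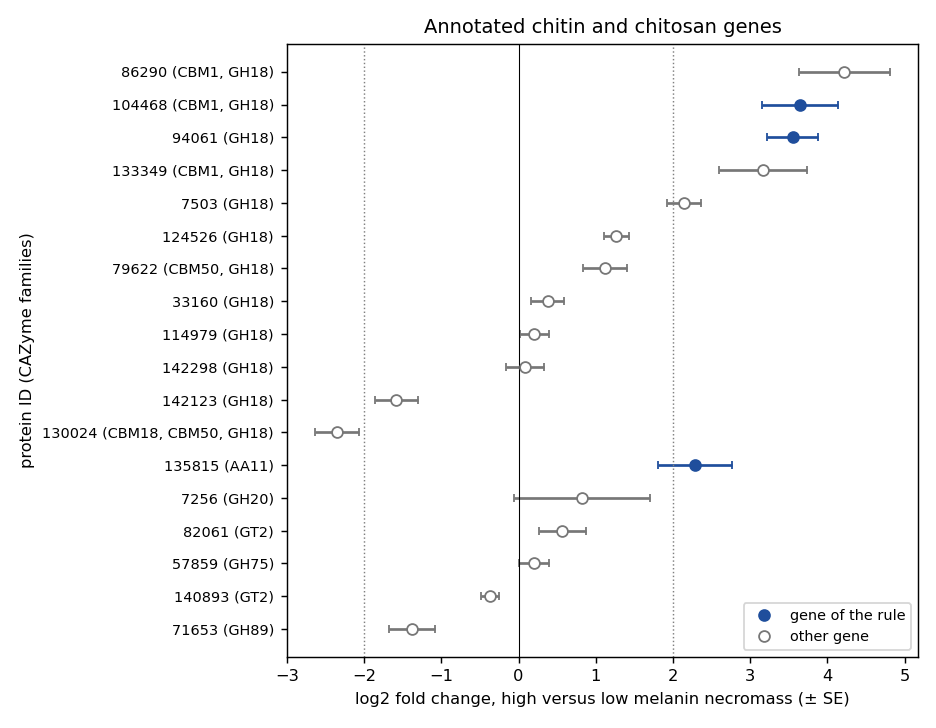
Log2 fold change on high versus low melanin necromass, with its SE, for the 12 annotated GH18 genes (upper block) and the 6 other chitin and chitosan genes (lower block). Filled blue points are genes of the rule and open points other genes, and dotted lines mark log2 fold changes of −2 and 2, and protein IDs 104468 (3.64) and 94061 (3.55) lie among the 5 GH18 genes right of the upper line, and 130024 lies alone left of the lower line.

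A single gene of the 25 is known here to belong to another family active on the fungal wall. The GH16 gene with protein ID = 95463, of a family of glucanases and wall-remodelling transglycosylases, was picked after its values were seen. It had 1.34, 1.00 and 1.03 CPM on high melanin necromass, against 0.221, 0.179 and 0.0497 CPM on low melanin necromass and 0.497, 0.102 and 0.389 CPM on glucose. Glucose replicate 1 was its highest library outside high melanin necromass, and low melanin necromass gave its lowest mean. None of the 29 annotated genes of wall glucan and mannan families met the rule, where 0.575% of the genes in the annotation did, so nothing is read from that 0. Of the 29 genes 1 was called up and 1 down on high versus low melanin necromass, where 48 and 15 of the 2086 genes in the annotation were.

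The GT4 gene with protein ID = 89863, a glycosyltransferase that builds rather than cleaves glycosidic bonds, sat at the edge of the rule. It had 11.4, 11.7 and 9.60 CPM on high melanin necromass, against 3.32, 3.94 and 5.27 CPM on low melanin necromass and 3.03, 1.94 and 1.41 CPM on glucose. All low melanin libraries lay above all glucose libraries, and the low melanin mean was 1.96 times the glucose mean, just inside the limit of 2. The same gene was nearest to the limit of 2.5-fold, at 2.61 times its low melanin mean.

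The 4 annotated genes outside the CAZymes belong to unrelated families. Protein ID = 102903, in the deiminase family that removes imino groups from arginine derivatives, had 33.6, 25.7 and 41.8 CPM on high melanin necromass, against 8.74, 9.23 and 5.86 CPM on low melanin necromass and 7.66, 5.66 and 4.19 CPM on glucose. It was the most abundant annotated gene of the 25, and its low melanin and glucose libraries overlapped. Its fitted log2 fold change was 2.20 (SE 0.27) on high versus low melanin necromass and 2.66 (SE 0.27) on high melanin necromass versus glucose.

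Protein ID = 128151, in the pyridoxal phosphate-dependent aminotransferases of class V, which include cysteine desulfurases, was close to an on and off pattern. It had 1.10, 0.915 and 1.07 CPM on high melanin necromass, from 27, 21 and 23 counts. Elsewhere it had a single count on low melanin necromass, in replicate 1, and 2 counts on glucose, both in replicate 2. The pooled level on high melanin necromass was 62.2 times that on low melanin necromass (95% exact interval 10.8 to 2493) and 31.0 times that on glucose (95% exact interval 8.27 to 261). These intervals cover counting error only.

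Cytochrome P450 enzymes are haem monooxygenases that oxidise many aromatic and lipid compounds. Protein ID = 131395, tagged as one and picked after its values were seen, had 1.54, 1.74 and 2.33 CPM on high melanin necromass, against 0.609, 0.582 and 0.745 CPM on low melanin necromass and 0.298, 0.357 and 0.341 CPM on glucose. The 3 substrates did not overlap and the low melanin mean was 1.94 times the glucose mean. It carries the P450 tag without the protein domain that defines the 23 P450 genes of the list fixed for that family, none of which met the rule.

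Protein ID = 119586 had 9.62, 10.3 and 11.3 CPM on high melanin necromass, against 0.996, 0.941 and 0.646 CPM on low melanin necromass and 0.846, 2.09 and 1.56 CPM on glucose. The lowest high melanin library stood 4.60 times above the highest other library, glucose replicate 2. Among the 8 genes of at least 10 CPM it had the largest ratio to the higher of the other means, 6.96.

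No gene with a peptidase family or transporter class tag was among the 25. The GH18 gene with protein ID = 104468 carries ontology and domain tags of subtilisin-type proteolysis, but no peptidase family tag. The 0 is not read as a result, since 0.575% of the genes in the annotation met the rule and 13 of the 25 lie outside it. Of the 68 annotated peptidases 2 were called up and 4 down on high versus low melanin necromass, and of the 210 annotated transporters 3 were called up and 2 down (edgeR, as above). Of all 2086 genes in the annotation 48 were called up and 15 down, and of all genes tested 0.655% and 0.215%. The annotated genes were chosen in the study for a change on these samples, so nothing is read from these counts. Of the 5 annotated AA1 multicopper oxidases, the family of laccases, 1 was called up and 0 down. That gene, protein ID = 104519, averaged 7.70 ± 1.81 CPM on high melanin necromass and 0.622 ± 0.108 CPM on low melanin necromass (SD, n = 3), and had no count on glucose, so it failed the rule by its rise on low melanin necromass. Its log2 fold change on high versus low melanin necromass was 3.72 (SE 0.30, edgeR adjusted p = 0.00138). It passed the filter only with the high melanin libraries counted, so its call is a description only. Protein ID = 92940 (AA1) went the other way, averaging 2.51 CPM on high and 5.03 CPM on low melanin necromass. Its log2 fold change was −0.888 (SE 0.21, edgeR adjusted p = 0.0276), short of the threshold of 2. At an adjusted p under 0.05 and any fold change, 1 of the 5 was higher and 1 lower.

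The 2 most abundant of the 25 genes had uneven levels on glucose, and neither has an annotation here. Protein ID = 138931 had 79.1, 65.6 and 53.7 CPM on high melanin necromass, against 20.03, 18.05 and 27.2 CPM on low melanin necromass and 5.62, 24.9 and 26.3 CPM on glucose. Protein ID = 33393 had 43.4, 86.1 and 68.7 CPM on high melanin necromass, against 7.86, 10.1 and 7.999 CPM on low melanin necromass and 0.199, 35.3 and 32.5 CPM on glucose.

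In both genes glucose replicate 1 lay far below the other glucose libraries, and in protein ID = 33393 it held 4 counts where glucose replicates 2 and 3 held 692 and 668. Without that library protein ID = 138931 stayed 2.58 times above glucose, while protein ID = 33393 stood at 1.95 times its glucose level and left the rule. Protein IDs 104468, 74964 and 89863 also left the rule without it. Against low melanin necromass protein ID = 33393 stood at 7.64 times its mean there, with a fitted log2 fold change of 3.04 (SE 1.00). Glucose replicate 1 was below both other glucose libraries in 10 of the 25 genes and above both in 10, and over all genes tested these shares were 25.3% and 57.5%. The summed level of the genes other than these 2 was 37.3 CPM in glucose replicate 1 and 32.5 and 27.8 CPM in replicates 2 and 3.

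In 3 further abundant genes the high melanin libraries were more even and low melanin necromass lay above glucose. Protein ID = 36997 had 25.6, 24.0 and 23.5 CPM on high melanin necromass, against 7.91, 10.5 and 8.60 CPM on low melanin necromass and 3.78, 5.41 and 4.87 CPM on glucose. Protein ID = 37646 had 18.2, 18.03 and 16.9 CPM on high melanin necromass, against 2.55, 5.15 and 2.24 CPM on low melanin necromass and 1.49, 2.14 and 1.85 CPM on glucose. Protein ID = 125042 had 18.8, 22.7 and 17.4 CPM on high melanin necromass, against 7.08, 8.29 and 4.52 CPM on low melanin necromass and 4.03, 4.29 and 3.41 CPM on glucose. For each of them every low melanin library exceeded every glucose library. The first of the 3 differed least among high melanin cultures relative to its level after protein ID = 37646, with coefficients of variation of 4.42% and 4.11%.

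Protein IDs 126082, 78278 and 5724 had low melanin means of 0.946, 1.08 and 1.24 times their glucose means. On high melanin necromass protein ID = 126082 had 9.86, 9.02 and 9.14 CPM, against 2.82, 3.67 and 3.43 CPM on low melanin necromass and 5.02, 3.47 and 2.00 CPM on glucose. Protein ID = 78278 had 8.20, 10.6 and 8.07 CPM on high melanin necromass, against 3.49, 3.31 and 3.03 CPM on low melanin necromass and 2.69, 2.75 and 3.70 CPM on glucose. Protein ID = 5724 had 6.29, 7.32 and 7.41 CPM on high melanin necromass, against 2.55, 2.37 and 2.98 CPM on low melanin necromass and 3.33, 1.43 and 1.61 CPM on glucose. In all 3 the low melanin and glucose libraries overlapped, and the ratio of high melanin to the higher of the other means lay from 2.66 to 2.74.

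Larger ratios occurred among rarer genes without annotation. Protein ID = 74964 had 6.29, 4.57 and 4.38 CPM on high melanin necromass, against 0.553, 0.806 and 0.348 CPM on low melanin necromass and 0.846, 0.204 and 0 CPM on glucose. Protein ID = 75929 had 3.33, 3.22 and 3.73 CPM on high melanin necromass, against 0.996, 0.537 and 0.199 CPM on low melanin necromass and 0.348, 0.459 and 0.292 CPM on glucose. Both stood over 5 times above the higher of their other means, as did 9 of the 25 genes. Protein ID = 67737 had 2.15, 2.96 and 3.40 CPM on high melanin necromass, against 0.387, 0.537 and 0.795 CPM on low melanin necromass and 0.298, 0.306 and 0.341 CPM on glucose, so that its substrates did not overlap at all.

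Protein ID = 68679 had the widest gap of the 25 genes. It had 2.27, 2.26 and 2.10 CPM on high melanin necromass, from 56, 52 and 45 counts. There was 1 count in all low melanin libraries together, in replicate 2, and 2 counts in each glucose library. The pooled high melanin level was 134 times that on low melanin necromass (95% exact interval 23.7 to 5332) and 22.3 times that on glucose (95% exact interval 9.99 to 61.6), and these intervals too cover counting error only. Its lowest high melanin library stood 20.6 times above its highest other library, against a median of 2.71 times over the 25 genes. Every low melanin library lay below every glucose library, on counts too few to give that difference a size.

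Protein ID = 69405 had 2.35, 1.74 and 1.49 CPM on high melanin necromass, against 0.111, 0.224 and 0.0497 CPM on low melanin necromass and 0.547, 0.102 and 0.341 CPM on glucose. Protein ID = 90934 had 1.01, 1.13 and 1.17 CPM on high melanin necromass, against 0.111, 0.134 and 0.0994 CPM on low melanin necromass and 0.249, 0.204 and 0 CPM on glucose. Both lay lowest on average on low melanin necromass, and their low melanin and glucose libraries overlapped. The last 2 genes, protein IDs 132735 and 75798, averaged 1.88 and 1.301 CPM on high melanin necromass, 0.559 and 0.123 CPM on low melanin necromass and 0.565 and 0.265 CPM on glucose. In protein ID = 132735 the lowest high melanin library was only 1.37 times above glucose replicate 1.

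Over all 25 genes the ratio of high to low melanin means ran from 2.61 to 148 with a median of 5.35, and the ratio of high melanin to glucose means from 2.67 to 30.2 with a median of 5.21. The fit across all 9312 genes put 15 of the 25 past both thresholds upward on high versus low melanin necromass, where 0.655% of all genes were, and 18 upward on high melanin necromass versus glucose, where 13.5% were. At an adjusted p under 0.05 and any fold change the counts were 23 (5.26% of all genes) and 24 (38.3% of all genes). The most abundant genes, protein IDs 138931 and 33393, missed it on high versus low melanin necromass, and 33393 also missed it versus glucose. The rule used both contrasts, so these counts describe how its limits relate to those of the fit. Of the genes not called on high versus low melanin necromass, all but protein ID = 33393 had a fitted log2 fold change under 2. Over the 25 genes the median log2 fold change was 2.51 on high versus low melanin necromass, against −0.01 for all genes tested. Versus glucose it was 2.48, against 0.02. Without high melanin replicate 1, 2 or 3 the first count was 8, 9 and 8, and the 6 genes that passed the filter through high melanin libraries alone were then no longer tested.

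Low melanin necromass and glucose can differ only so far in these genes, since the rule capped the low melanin mean under 2 times the glucose mean. The low melanin mean was the higher in 13 genes and the lower in 12, and the median log2 fold change was 0.10, against 0.01 for all genes tested. Libraries of the 2 substrates did not overlap in 8 genes, with low melanin necromass above glucose in 6 (protein IDs 36997, 125042, 37646, 89863, 67737 and 131395) and below it in 2 (protein IDs 94061 and 68679). Over all genes tested the libraries were apart in the same directions for 38.0% and 35.9%. By edgeR 0 of the 25 genes passed both thresholds in this comparison, where 12.0% of all genes did upward and 7.18% downward, and upward the cap allowed no other count. That count was also 0 with DESeq2, while 7 genes had an unadjusted p under 0.05 with edgeR (76.2% of all genes) and 6 with DESeq2 (76.5% of all genes). At an adjusted p under 0.05 and any fold change 5 were higher (37.4% of all genes) and 1 lower (37.0% of all genes) on low melanin necromass. The cap shaped all of these counts, so they describe the genes chosen and are not read against the shares of all genes.

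**Figure D3:**
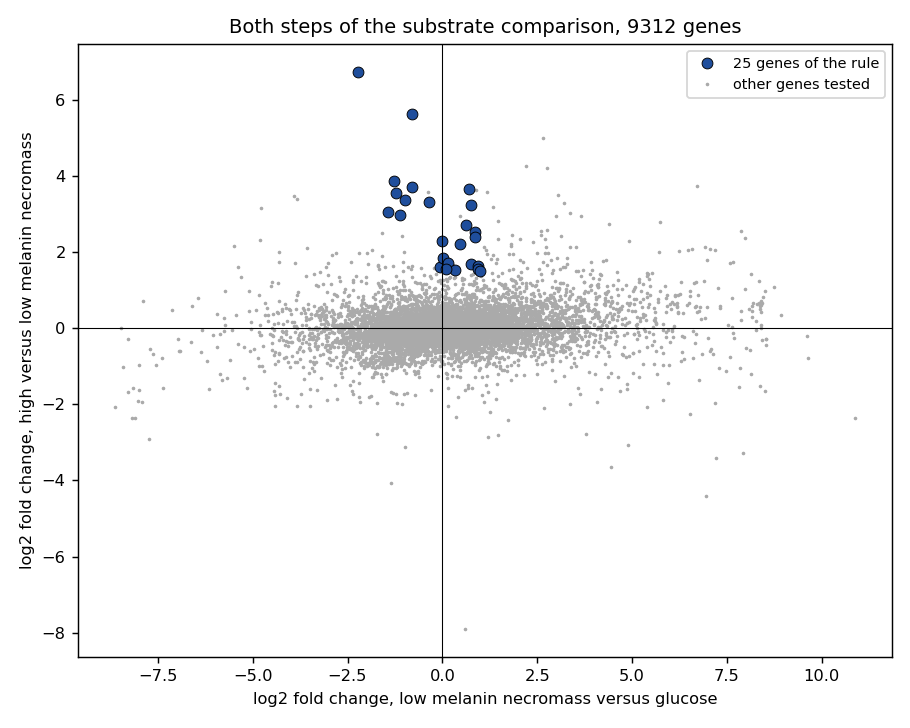
Log2 fold change of low melanin necromass versus glucose on the horizontal axis and of high versus low melanin necromass on the vertical axis, for the 9312 genes tested. Large blue points are the 25 genes of the rule, which lie between −2.22 and 0.99 on the horizontal axis and between 1.49 and 6.73 on the vertical axis, and small grey points are all other genes, and low melanin libraries enter both axes, so the axes are not independent.

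Spread among the high melanin cultures differed widely between the genes. The coefficient of variation of CPM over the 3 high melanin libraries ran from 4.11% to 52.0% with a median of 16.8%, and it exceeded counting error in 18 of the 25 genes. It was under 10% in 9 genes and over 30% in 3 genes, protein IDs 135815, 104468 and 33393. Among genes from 1 to 3 CPM on high melanin necromass the median was 22.1% for the 12 genes of the rule and 17.97% for all 601 genes tested, and at 10 CPM or more it was 12.1% for the 8 genes and 6.96% for all 7060. From 3 to 10 CPM it was 8.87% for 5 genes and 11.4% for all 1158. High melanin replicates 1, 2 and 3 were the highest library for 10, 8 and 7 of the 25 genes.

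**Figure D4:**
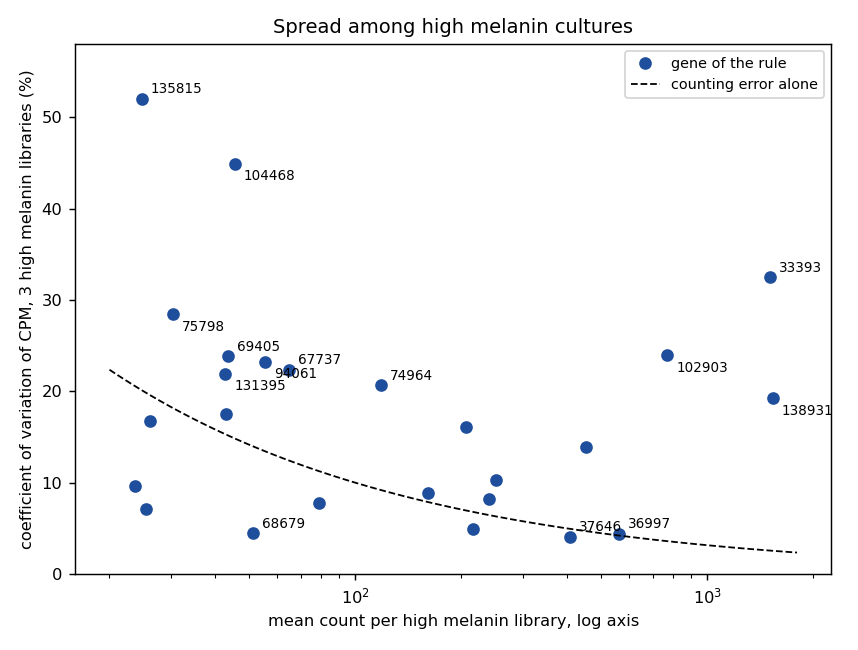
Coefficient of variation of CPM over the 3 high melanin libraries against the mean count per high melanin library on a log axis, 1 point per gene of the rule, where the dashed line is the value that counting error alone gives. Protein IDs 135815 (52.0%), 104468 (44.9%) and 33393 (32.5%) are the highest points, and 37646 and 36997 lie near the line.

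At the edges of the rule the values were close to each other. The 3 genes nearest inside the limit of 2.5-fold were protein IDs 89863, 5724 and 126082, at 2.61, 2.66 and 2.67 times the higher of their other means. Nearest outside it were protein IDs 80314, an ABC transporter gene, 34902 and 87973, at 2.48, 2.43 and 2.40 times. Beyond the limit on low melanin necromass, protein IDs 82459 and 37393 stood at 2.15 and 2.30 times their glucose mean, against 1.96 and 1.94 times for protein IDs 89863 and 131395 inside it. Protein ID = 47347 was the gene left out for overlap alone, with 0.568, 1.05 and 1.59 CPM on high melanin necromass and up to 0.663 CPM on glucose.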

How the data were processed

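RNA of 9 cultures of *T. reesei* RUT-C30, 3 per substrate, was sequenced from poly(A) libraries. The authors trimmed the reads, quantified them with kallisto (version 0.48.0) against the RUT-C30 transcripts from Ensembl Fungi, and deposited the estimated counts per gene in whole numbers, not scaled for library size and without gene names, lengths or coordinates. Plain CPM (count divided by the library total, times 1000000) served for the rule and for all levels. Fold changes and calls came from edgeR (version 4.0.16, R version 4.3.3), as a quasi-likelihood fit of all 9 libraries with TMM factors on the 9312 genes that reached 10 counts in 3 or more libraries, with Benjamini-Hochberg adjustment over all of them. DESeq2 (version 1.42.0) was an alternative. The SE is the one implied by the F statistic. The fit was checked on simulated counts for high versus low melanin necromass, where it recovered 100 of 100 genes at a log2 fold change of 3 and 100 of 100 at 5 among 9262, with 0 false calls. The changed genes were drawn from the more abundant ones, and every gene was given the same dispersion. The check therefore does not cover the rarest genes of the rule, smaller fold changes or genes of uneven level. Replicate numbers are shared between substrates, but same-numbered libraries did not deviate together, with correlations of −0.168 to 0.0789.

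Members and lists were chosen with earlier results of these data known. Per-library values are given for genes among the 10 highest on high melanin necromass, among the 10 with the largest ratio to the higher of the other means, with a CAZyme, peptidase or transporter tag, or among the 3 nearest inside the limit, and 4 more were named after their values were seen. Annotation tags came from the study's table, whose own fold changes and p values were not used. The gene table of strain QM6a numbers its genes differently and was not used, so no sequence or position is given.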

Additional observations from a re-analysis of the deposited data

How the results depend on the processing

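The number of genes that met the rule was 32 with TMM-scaled or RLE-scaled CPM and 31 with upper-quartile scaling, with all 25, all 25 and 23 of the original genes kept. Plain CPM sets the median log2 ratio of all genes at −0.13 on high versus low melanin necromass, against −0.01 in the fit. The number was 50 at a fold of 2, 17 at a fold of 3, 12 at a minimum of 5 CPM, 16 with low melanin under 1.5 times glucose and 26 with overlap allowed. With each library left out in turn it ran from 24 to 30, and 12 of the 25 genes were kept whichever library was left out.

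Against a null of a log2 fold change of 2 (glmTreat), the call held for 1 of the 25 genes when high was set against low melanin necromass, and for 10 when it was set against glucose. All genes called were then 2 on high versus low melanin necromass and 1144 on low melanin necromass versus glucose, against 81 and 1789, and 0 GH18 genes were called up. With a library left out, calls among the 25 genes on high versus low melanin necromass ran from 8 to 16, all genes called there from 51 to 106 and GH18 genes from 3 to 5, an alternative chosen after the data were seen. For low melanin necromass against glucose, 2 of the 25 were called without glucose replicate 1 or without low melanin replicate 2, and 0 otherwise. The median log2 fold change of the 25 genes ran from 1.98 to 2.83 on high versus low melanin necromass and from 0.0563 to 0.3358 on low melanin necromass versus glucose. Leaving out a high melanin library removes up to 6 of the 25 genes from the test, so those medians cover fewer genes. The GH18 count of 3 came from those fits, where protein IDs 104468 and 86290 were not tested. With the replicate number as a block, 15 of the 25 genes were called on high versus low melanin necromass and 82 of all genes. The block changed no count of the 25 genes by over 1.5 times. No gene of the 25 changed sign on high versus low melanin necromass in any fit that tested it. Depth limits the 12 genes under 3 CPM, where 3 counts equal 0.122 to 0.166 CPM.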

Other observations

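A group of 77 genes met every condition of the rule except the limit on low melanin necromass, and 54 met every condition except the distance from low melanin necromass. A further 17 genes met every condition except the minimum level of 1 CPM on high melanin necromass. The 77 genes thus shared the contrast of the 25 to both other substrates but had a low melanin mean of at least 2 times their glucose mean.

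In 12 of the 25 genes the lowest mean was on low melanin necromass and not on glucose. Over all genes tested the median log2 fold change of low melanin necromass versus glucose was 0.01, near an even split, so nothing is read from this count. Among them are protein IDs 94061 (GH18), 95463 (GH16), 128151 (class V aminotransferase) and 119586. Their low melanin means were 0.424, 0.455, 0.542 and 0.574 times their glucose means. Of these, only protein ID = 94061 had every low melanin library below every glucose library. In protein IDs 95463, 128151 and 119586 the libraries overlapped, so no order is read from their ratios. The ratio of protein ID = 128151 rests on 1 low melanin count and 2 glucose counts, and that of 95463 on 9 and 20.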
